A study of Mus musculus with 6 samples.

Results

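The genes described here are those of cholesterol synthesis and of the SREBP system that controls it, 29 in all of the 38720 rows of a table of normalized counts, that is reads per gene divided by a size factor for each library. They were chosen by gene symbol, as 20 enzyme genes in pathway order, 5 genes of the SREBP system and 4 genes of sterol transport, storage and receptor turnover. These genes, and the further lists below, were chosen with earlier results of these data known. A total of 28 were found under their current symbol and Msmo1 under its older symbol Sc4mol. All 29 passed the filter on low values, a normalized count of 10 or more in 3 or more of the 6 libraries. The study set Cldn18 knockout mice (CLDN18-/-) against wild-type mice (CLDN18+/+), both of strain B6:129S5, with 3 libraries in each group. Claudin 18 seals the tight junctions between epithelial cells of the stomach. RNA was sequenced from the neck region of corpus glands, which had been cut out of unfixed frozen sections by laser capture. The sample labels give an age of 7 weeks and the series text one of 7 days. The sources used here do not give what was deleted in the knockout, nor whether a library stands for 1 animal or for a pool. The p-values therefore measure only the spread between these libraries, which may be technical.

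Cells make cholesterol from acetyl-CoA through mevalonate, the isoprenoid diphosphates, squalene and lanosterol. The pathway is switched by SREBP transcription factors, which are held in the endoplasmic reticulum by the escort protein SCAP and the INSIG proteins while membrane sterol is plentiful. When sterol falls, SREBP is carried to the Golgi, cut, and enters the nucleus, where it acts on sterol regulatory elements of its target genes, often together with the factors NF-Y and Sp1. SREBP2 acts mainly on sterol genes and SREBP1 mainly on fatty acid genes. The same pathway also supplies isoprenoids for protein prenylation, ubiquinone and dolichol.

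The libraries held 37673283 to 52842813 reads on genes. Cldn18 itself had 13035, 16798 and 15819 normalized counts in the KO libraries, against 30498, 21210 and 23241 in the wild-type libraries (log2 difference -0.71 ± 0.20 SE, limma adjusted p = 0.0134). That call was lost without KO replicate 1 (limma adjusted p = 0.0896). Of 6 squamous forestomach markers, wild-type libraries 2 and 3 stood apart mainly in Krt5 and Krt14. Krt5 had 220, 3219 and 1068 normalized counts in wild-type libraries 1, 2 and 3, and Krt14 had 113, 2177 and 790. Krt4, Krt13 and Trp63 overlapped between groups. Ivl went the other way, with 282 to 405 in KO and 0, 0 and 1.94 in wild-type. The sums over the 6 genes were 536 to 666 in the KO libraries, against 397, 5803 and 2109 in wild-type libraries 1, 2 and 3. Counts of called genes are therefore also given without wild-type libraries 2 and 3. That fit keeps 1 wild-type library and assumes that it varies like the KO libraries.

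Most of the enzyme genes were higher in the KO libraries, while the genes that retain SREBP or handle finished cholesterol were higher, lower or not called. By limma (adjusted p under 0.05 over 17432 genes), 21 of the 29 were higher in KO, 2 were lower and 6 were not called. Over all genes tested, 23.3% were called higher and 21.5% lower. The counts of each pathway step and gene group below stand against the same shares. Of the 29, 14 were higher by at least 2-fold, that is by a log2 difference of at least 1, against 11.2% of all genes. The KO values lay wholly above the wild-type values for 24 of the 29 and wholly below them for 2, against 28.1% and 27.1% of all genes. The median log2 difference was 0.96 for the 29 genes and -0.02 for all genes tested. The median was 1.16 for the 20 enzyme genes, of which 17 were higher, 3 were not called and 0 were lower. Counts without wild-type libraries 2 and 3 are given in the closing section, with those of all genes in the same fit. The 1 wild-type library kept in that fit is replicate 1. Because the tissue was measured in bulk, a change in the number of cells of a type and a change in RNA per cell cannot be told apart.

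Summed over the 29 genes, the normalized counts were 81621, 84172 and 86019 in the KO libraries, against 51527, 45235 and 43727 in the wild-type libraries. The sums did not overlap. Within groups, the median coefficient of variation of the 29 genes was 8.68% over the KO libraries and 11.9% over the wild-type libraries. For all genes tested it was 15.3% and 20.1%. All genes tested were not matched to the 29 for level, on which the variation of counts depends. The gap was therefore not read as a trait of these genes. The shares of all genes that were called, or whose groups did not overlap, were not matched for level either. Among the wild-type libraries, replicate 1 had the highest value for 21 of the 29 genes (72.4%), against 46.1% of all genes tested.

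Marker genes of several cell types were read in the same comparison. Their counts stand against 23.3% higher and 21.5% lower over all genes tested. Of 10 genes of dividing cells, 10 were higher in KO, with summed normalized counts of 41378 to 54042 in KO and 14101 to 16997 in wild-type. Of 7 parietal cell genes 6 were lower and 1, Kcnk1, was higher, with sums of 6797 to 12997 in KO and 398292 to 517557 in wild-type. The 6 chief cell genes were all lower, with sums of 34471 to 68146 in KO and 1807920 to 3004440 in wild-type. Of 5 mucous neck cell genes 3 were higher and 1 lower, with sums of 89215 to 185842 in KO and 76556 to 98976 in wild-type. Of 6 surface pit cell genes 1 was higher and 3 were lower. Macrophage genes were higher in 4 of 6 cases and fibroblast genes in 3 of 6, with 0 lower in either list, and endothelial genes were lower in 5 of 5. Smooth muscle genes were lower in 3 of 5 with 0 higher, squamous genes higher in 1 and lower in 2 of 6, and adipocyte genes higher in 1 and lower in 1 of 4. The part of these shifts in the results below was not tested.

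**Figure D1:**
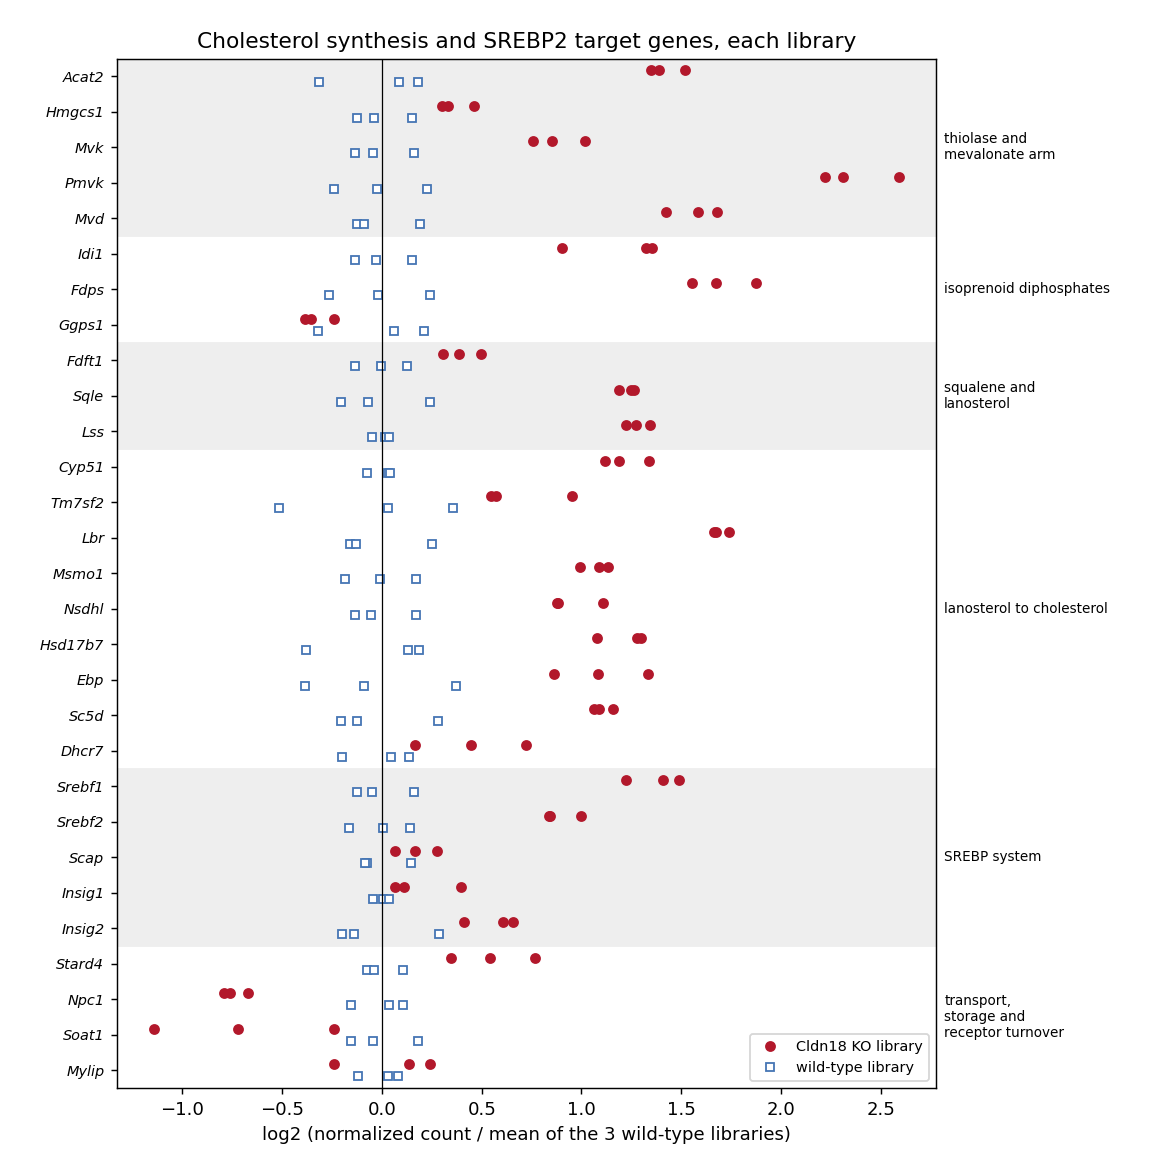
Each of the 29 genes in each library, as log2 of the normalized count over the mean of the 3 wild-type libraries (x axis), by pathway step down the page. Filled circles are KO libraries and open squares wild-type libraries. For 24 genes all 3 circles lie to the right of all 3 squares, and for Npc1 and Soat1 all 3 lie to the left.

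Promoter sequences were at hand for 24 of the 29 genes (RefSeq, GRCm38.p6, 250 bases before to 50 bases after each annotated start). The windows shown are those of Pmvk, Lbr and Mvd, which had the largest differences among genes with an entry, of Hmgcs1, the gene with the highest level per length, of Srebf2, which encodes the regulator itself, and of Soat1, which went the other way. Each is given 5′ to 3′ on the strand of its gene, at the first start listed. Capitals mark the sterol regulatory element motif TCACNCCAC, its shorter form TCACNCC and the CCAAT box bound by NF-Y, on either strand, so that a CCAAT box on the opposite strand appears as ATTGG.
Pmvk (chr3:89454291-89454590, plus strand): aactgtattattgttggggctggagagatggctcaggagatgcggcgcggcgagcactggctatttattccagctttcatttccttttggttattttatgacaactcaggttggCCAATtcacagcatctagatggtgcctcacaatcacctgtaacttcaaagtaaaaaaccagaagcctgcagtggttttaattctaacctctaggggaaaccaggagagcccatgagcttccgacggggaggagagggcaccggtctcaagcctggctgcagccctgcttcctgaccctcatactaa
Mvd (chr8:122443373-122443672, minus strand): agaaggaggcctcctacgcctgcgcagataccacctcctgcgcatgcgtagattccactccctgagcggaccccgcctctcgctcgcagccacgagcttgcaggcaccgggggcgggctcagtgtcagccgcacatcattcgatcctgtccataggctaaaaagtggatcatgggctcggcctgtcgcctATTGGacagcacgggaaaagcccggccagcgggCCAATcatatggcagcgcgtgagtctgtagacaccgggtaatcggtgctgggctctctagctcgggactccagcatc
Lbr (chr1:181842352-181842651, minus strand): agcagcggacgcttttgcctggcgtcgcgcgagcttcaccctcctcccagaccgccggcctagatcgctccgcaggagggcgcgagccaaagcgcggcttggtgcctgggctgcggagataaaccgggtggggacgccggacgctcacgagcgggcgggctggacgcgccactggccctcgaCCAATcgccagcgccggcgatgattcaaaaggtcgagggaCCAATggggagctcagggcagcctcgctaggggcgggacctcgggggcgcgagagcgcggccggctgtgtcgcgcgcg
Hmgcs1 (chr13:119690101-119690400, plus strand): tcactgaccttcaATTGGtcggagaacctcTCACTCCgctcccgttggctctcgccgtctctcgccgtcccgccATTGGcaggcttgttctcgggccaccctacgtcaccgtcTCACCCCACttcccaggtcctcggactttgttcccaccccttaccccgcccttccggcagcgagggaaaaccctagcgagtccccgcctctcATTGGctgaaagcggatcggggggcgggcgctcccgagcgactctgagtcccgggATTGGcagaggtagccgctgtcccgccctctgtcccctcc
Srebf2 (chr15:82147019-82147318, plus strand): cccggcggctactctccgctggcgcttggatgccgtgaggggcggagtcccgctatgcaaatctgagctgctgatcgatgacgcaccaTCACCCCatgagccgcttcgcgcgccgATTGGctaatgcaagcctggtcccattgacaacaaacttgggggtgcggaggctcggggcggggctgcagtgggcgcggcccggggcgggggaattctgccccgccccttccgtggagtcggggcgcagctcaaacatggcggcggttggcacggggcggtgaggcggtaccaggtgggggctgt
Soat1 (chr1:156474279-156474578, minus strand): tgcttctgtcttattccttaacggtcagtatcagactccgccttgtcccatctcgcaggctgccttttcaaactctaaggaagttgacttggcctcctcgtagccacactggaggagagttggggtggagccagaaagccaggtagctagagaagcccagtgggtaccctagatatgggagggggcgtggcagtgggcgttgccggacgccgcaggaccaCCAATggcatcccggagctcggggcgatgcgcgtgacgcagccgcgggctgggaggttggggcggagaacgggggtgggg

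Most of these promoters held a CCAAT box and an Sp1 motif. The CCAAT box was found on either strand in 22 of the 24 genes with an entry (91.7%), against 41.1% of 27025 genes in the same promoter table and 42.2% of the 11600 of them that were also tested here. The Sp1 motif GGGCGG was likewise found in 22 of 24 (91.7%), against 38.2% of all genes in the table and 64.7% of those tested. The motif TCACNCCAC was found in 1 gene, Hmgcs1, where it starts at position -137 from the annotated start; 1.44% of all genes in the table and 1.48% of those tested held it. Its shorter form TCACNCC, which each full match also contains, was found in 5 of 24 (20.8%), against 17.6% of all genes in the table and 19.5% of those tested. All starts listed for a gene were counted together, so a gene with several starts had more chances of a match. A match is a match of letters and not a site of binding. An element spelled otherwise would have been missed, so a promoter without a match may still hold one. The Pmvk window has a single CCAAT box at -136, the Mvd window has 2, at -60 and -27, and the Lbr window has 2, at -68 and -28. The Hmgcs1 window holds 4 CCAAT boxes around its full motif.

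**Figure D2:**
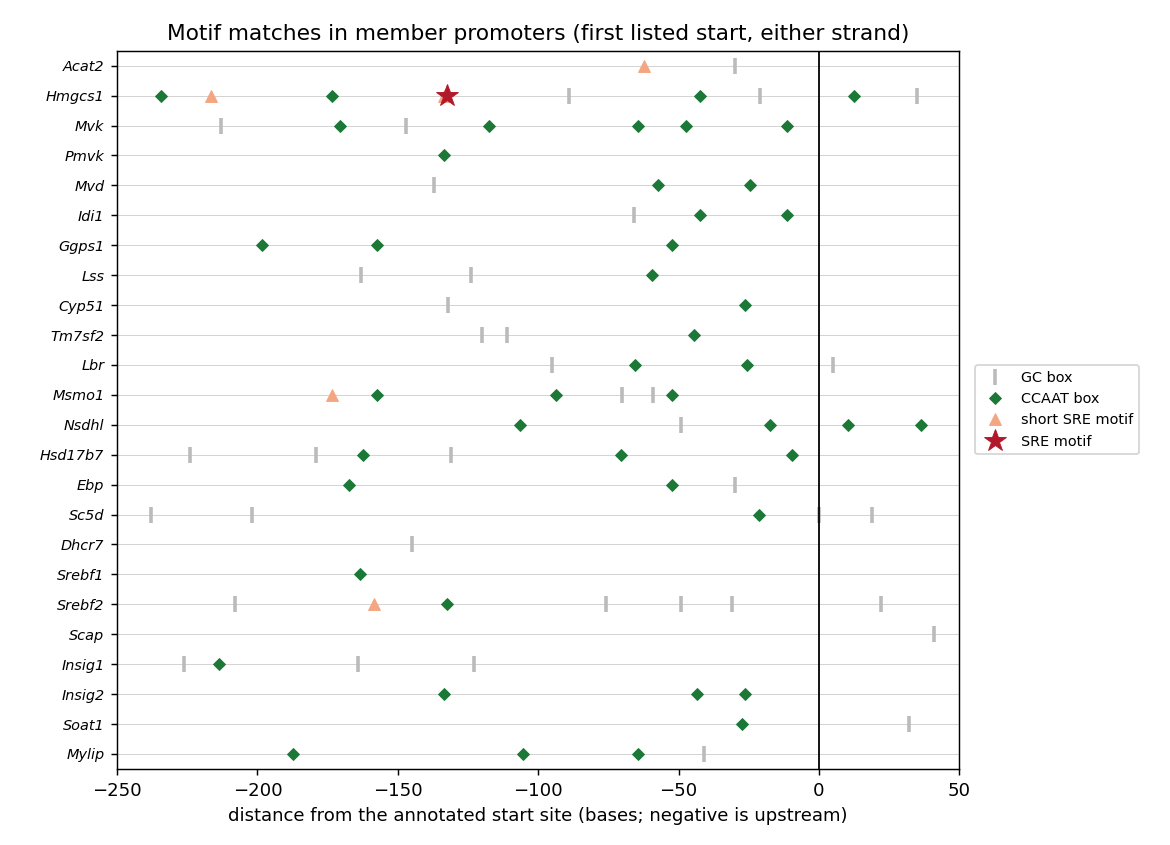
Positions of the 4 motifs in the promoters of the 24 genes with an entry, on either strand, at the first start listed for each gene (x axis, bases from the start; negative is upstream). CCAAT boxes (diamonds) are found in each row but those of Acat2, Dhcr7 and Scap (Dhcr7 has them at another start), and the full sterol regulatory element motif (star) only in the Hmgcs1 row.

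In the thiolase and mevalonate arm, 4 of 5 genes were higher in KO; the exception was Hmgcs1. Pmvk, which encodes phosphomevalonate kinase (chr3:89454541-89469013, plus strand), had 1676, 1577 and 2038 normalized counts in the KO libraries, against 286, 395 and 333 in the wild-type libraries. Its KO mean was 5.21 times the wild-type mean, the largest difference of the 29 genes (log2 difference 2.38 ± 0.17 SE, limma adjusted p = 3.64e-06). Mvd, the decarboxylase that makes isopentenyl diphosphate (chr8:122433601-122443422, minus strand), had 1939.9, 1733 and 2069 in KO and 738, 593 and 607 in wild-type (log2 difference 1.57 ± 0.15 SE, adjusted p = 2.15e-05). Each KO library was above each wild-type library for both genes. Acat2, the cytosolic thiolase that makes acetoacetyl-CoA, had 1357, 1523 and 1393 normalized counts in KO and 428, 566 and 603 in wild-type (log2 difference 1.43 ± 0.16 SE, adjusted p = 7.49e-05). Its transcript is 97.7% identical to that of Acat3 over 1477 bases, and Acat3 was near the floor of the table, with means of 9.62 in KO and 11.8 in wild-type. A stretch of 445 bases of the Acat2 transcript also matches that of Tcp1, at 98.7% identity. Tcp1 encodes a chaperonin subunit and averaged 7081 in KO and 4480 in wild-type, so reads in the similar stretch are uncertain. Mvk, mevalonate kinase, had 1113, 1332 and 1185 in KO and 736, 599 and 637 in wild-type (log2 difference 0.88 ± 0.15 SE, adjusted p = 0.000901).

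Hmgcs1 had the smallest log2 difference of the arm. It encodes the cytosolic HMG-CoA synthase (chr13:119690379-119708260, plus strand) and had 10216, 11190.2 and 10002 normalized counts in the KO libraries, against 9023, 7885 and 7445 in the wild-type libraries. The groups did not overlap, and the gene just missed the threshold (log2 difference 0.37 ± 0.15 SE, limma adjusted p = 0.0607). It was called higher by edgeR (adjusted p = 0.0262), by DESeq2 (adjusted p = 0.0434) and without wild-type replicate 1 (limma adjusted p = 0.0251). It was also called higher with array weights (limma adjusted p = 0.0204), TMM scaling (0.0191) and scaling to total reads (0.00901). In the annotation 12.1% of its exon length is shared with an antisense gene, Gm48342, and the sources used here do not say whether the counting used strand.

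Of the 3 genes of the isoprenoid diphosphates, 2 were higher in KO, and Ggps1, on the branch to non-sterol products, was not called. Fdps, which makes farnesyl diphosphate (chr3:89093588-89101959, minus strand), had 5539, 5092 and 6373 normalized counts in KO and 2050.3, 1714 and 1443 in wild-type. Its KO mean was 3.27 times the wild-type mean (log2 difference 1.72 ± 0.16 SE, limma adjusted p = 1.98e-05). Fdps has several near-identical processed pseudogenes, and 26.7% of its exon length is shared with the same-strand gene Gm43738, so its reads could be split. Those pseudogenes found in the table averaged 3.23 to 39.0 normalized counts in KO and 18.9 to 50.3 in wild-type. Idi1, the isomerase that makes dimethylallyl diphosphate, had 636, 868 and 849 in KO and 309.7, 332 and 377 in wild-type (log2 difference 1.20 ± 0.18 SE, adjusted p = 0.000443), and it also has close pseudogene copies. Ggps1, which makes the geranylgeranyl diphosphate used in protein prenylation, had 406, 397 and 439 in KO and 416, 601 and 541 in wild-type. The groups overlapped and Ggps1 was not called (log2 difference -0.31 ± 0.18 SE, adjusted p = 0.197); without wild-type replicate 1 it was called lower (adjusted p = 0.0435).

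All 3 genes that lead through squalene to lanosterol were called higher, Fdft1 by the least. Sqle, squalene epoxidase, a rate-limiting enzyme of the sterol branch, had 5263, 5205 and 4991 normalized counts in KO and 2591, 1899 and 2086 in wild-type (log2 difference 1.24 ± 0.15 SE, limma adjusted p = 8.37e-05). Lss, lanosterol synthase, had 2663, 2761 and 2898 in KO and 1154, 1168 and 1102 in wild-type (log2 difference 1.28 ± 0.12 SE, adjusted p = 2.46e-05). For both genes the KO libraries lay far above the wild-type libraries. Fdft1, squalene synthase, the step that commits farnesyl diphosphate to sterols, had 2504, 2858 and 2649 in KO and 2208, 1844 and 2017 in wild-type (log2 difference 0.40 ± 0.13 SE, adjusted p = 0.0304). Its groups did not overlap, but the call was lost without each of KO replicates 1, 2 and 3 and wild-type replicates 2 and 3 (limma adjusted p = 0.0665 to 0.109), without both wild-type libraries 2 and 3 (0.204), and after upper quartile scaling (0.133) or quantile normalization (0.143). It was also lost without a filter on low values (limma adjusted p = 0.0656), with the replicate block (0.0786) and in the authors' deposited table (0.242). The exons of Fdft1 share 774 bases, 18.3% of their length, with Ctsb on the opposite strand. Ctsb, a lysosomal protease gene, averaged 13064 normalized counts in KO and 14797 in wild-type. The sources used here do not say whether the counting used strand, so reads in the shared stretch are uncertain.

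**Figure D3:**
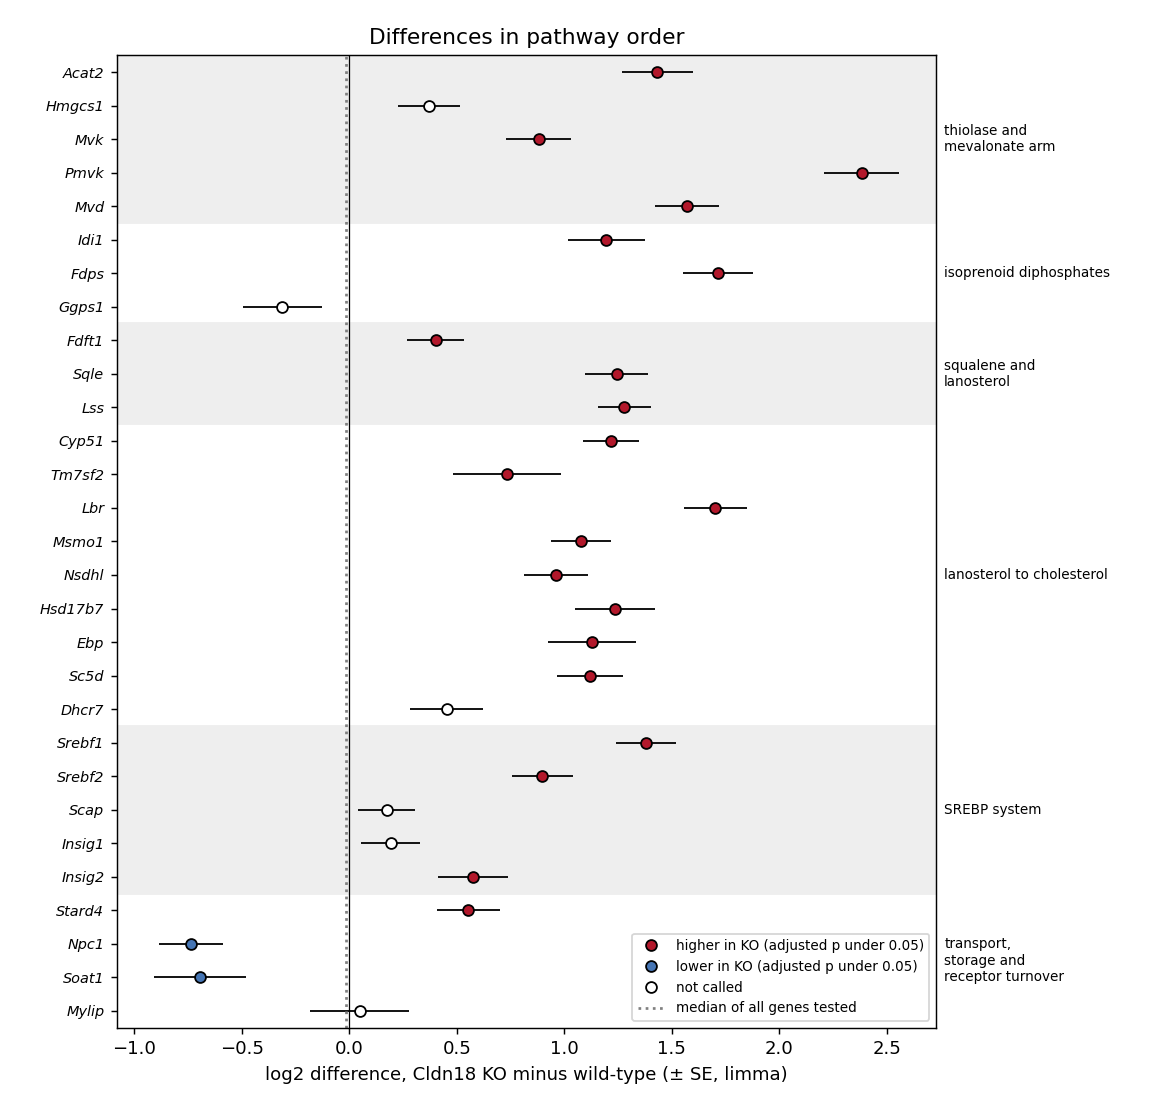
Log2 difference, KO minus wild-type, of each gene with its standard error (limma, n = 3 libraries a group), in pathway order. Filled red points were called higher, blue points lower and open points not called; the dotted line is the median of all genes tested, -0.02. Pmvk lies farthest to the right at 2.38, Fdps follows at 1.72, and Npc1 (-0.74) and Soat1 (-0.69) lie farthest to the left.

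Of the 9 genes that turn lanosterol into cholesterol, 8 were higher in KO and Dhcr7 was not called. Lbr encodes a sterol reductase of this stretch that is also a protein of the inner nuclear membrane (chr1:181815335-181843046, minus strand). It had 3689, 3856 and 3659 normalized counts in the KO libraries, against 1375, 1036 and 1056 in the wild-type libraries, with a KO mean 3.23 times the wild-type mean (log2 difference 1.70 ± 0.15 SE, limma adjusted p = 1.11e-05). Tm7sf2 encodes a sterol reductase of the same reaction and had 329, 427 and 323 in KO and 283, 154 and 225 in wild-type (log2 difference 0.73 ± 0.25 SE, adjusted p = 0.0353). The Tm7sf2 groups did not overlap, but its call was lost without each of KO replicates 1, 2 and 3 and wild-type replicates 2 and 3 (limma adjusted p = 0.0628 to 0.135), without both wild-type libraries 2 and 3 (0.336), after upper quartile scaling (0.10) and in the authors' deposited table (0.0613). A stretch of 12.1% of its exon length also belongs to the gene Vps51. The linear Tm7sf2 to Lbr ratio of normalized counts was 0.0893, 0.111 and 0.0885 in the KO libraries, against 0.206, 0.150 and 0.214 in the wild-type libraries. The ratio was lower in each KO library than in each wild-type library, by a log2 difference of -0.97 (exact permutation test, two-sided, p = 0.1, which is the smallest value possible with 3 libraries a group). These ratios do not depend on how libraries are scaled.

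The middle enzymes of that stretch were all higher in KO. Cyp51, the lanosterol demethylase, had 6733, 6418 and 7488 normalized counts in KO and 3019, 3038 and 2810.1 in wild-type (log2 difference 1.22 ± 0.13 SE, limma adjusted p = 4.63e-05). Removal of the remaining methyl groups takes Msmo1, Nsdhl and Hsd17b7. Msmo1, the methylsterol monooxygenase, had 3632, 3404 and 3752 in KO and 1928, 1503 and 1698 in wild-type (log2 difference 1.08 ± 0.14 SE). Nsdhl, the sterol dehydrogenase of this cycle, had 1275, 1271 and 1495 in KO and 779, 631 and 667 in wild-type (log2 difference 0.96 ± 0.15 SE). Hsd17b7, its ketoreductase, had 959.5, 836 and 973 in KO and 450.5, 304 and 433 in wild-type (log2 difference 1.24 ± 0.19 SE). For each of these 4 genes the KO libraries were all above the wild-type libraries, with a KO mean 1.95 to 2.33 times the wild-type mean (limma adjusted p up to 0.000525).

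The last steps shift and reduce the double bonds of the sterol ring. Ebp, the sterol isomerase, had 1651, 1418 and 1966 normalized counts in KO and 1009, 731 and 597 in wild-type (log2 difference 1.13 ± 0.20 SE, limma adjusted p = 0.00129). Sc5d, the sterol desaturase, had 2905, 2855 and 3058 in KO and 1664, 1255 and 1188 in wild-type (log2 difference 1.12 ± 0.15 SE, adjusted p = 0.000237). Wild-type replicate 1 was the highest wild-type library for both. Dhcr7, a reductase of the final steps, had 1470.5, 1780.5 and 1210.1 in KO and 1186, 1111 and 937 in wild-type. The groups did not overlap, but KO replicate 3 lay just above the highest wild-type library, and Dhcr7 was not called (log2 difference 0.45 ± 0.17 SE, adjusted p = 0.0531). It was called higher by edgeR (adjusted p = 0.0300), without KO replicate 3 (limma adjusted p = 0.0299) and without wild-type replicate 1 (0.0340). It was also called higher with array weights (limma adjusted p = 0.0141), TMM scaling (0.0331), scaling to total reads (0.0280) and a minimum of 50 in 3 libraries (0.0467).

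Both genes of the SREBP factors were higher in KO. Srebf1 (chr11:60199089-60222581, minus strand) had 3901, 4432 and 4679 normalized counts in the KO libraries, against 1863, 1610.3 and 1530.3 in the wild-type libraries (log2 difference 1.38 ± 0.14 SE, limma adjusted p = 3.19e-05). Srebf2 (chr15:82147181-82205379, plus strand) had 9231, 9278 and 10317 in KO and 5704, 5177 and 4615 in wild-type (log2 difference 0.90 ± 0.14 SE, adjusted p = 0.000596). The linear Srebf2 to Srebf1 ratio was 2.37, 2.09 and 2.20 in KO, against 3.06, 3.21 and 3.01 in wild-type. It was lower in each KO library, by a log2 difference of -0.48 (exact permutation test, two-sided, p = 0.1, again the smallest possible). The counts are per gene, so the separate transcripts of Srebf1 that differ in their first exon were not told apart.

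Of the 3 genes whose products hold SREBP in the endoplasmic reticulum, 1 was called higher in KO. Scap, the escort protein gene, had 3210.1, 2987 and 3465 normalized counts in KO and 3164, 2714 and 2696 in wild-type; the groups overlapped and it was not called (log2 difference 0.17 ± 0.13 SE, limma adjusted p = 0.322), except with scaling to total reads (0.0410). Its annotated exons share 13.2% of their length with a gene on the opposite strand. Insig1, itself a classical SREBP target, had 3555, 4332 and 3447 in KO and 3304, 3367 and 3193 in wild-type. Each KO library lay above each wild-type library, KO replicate 2 by the most, and Insig1 was not called (log2 difference 0.19 ± 0.14 SE, adjusted p = 0.28). Insig2, the second retention protein, had 1641, 1437 and 1700.3 in KO and 1317, 939.7 and 979 in wild-type and was called higher (log2 difference 0.58 ± 0.16 SE, adjusted p = 0.015). That call was lost without KO replicate 1 (limma adjusted p = 0.0629), without KO replicate 3 (0.0629), without wild-type replicate 3 (0.0592) and without both wild-type libraries 2 and 3 (0.243), where the log2 difference was 0.27, and it was not made in the authors' deposited table (0.0701). The linear Insig1 to Insig2 ratio was 2.17, 3.01 and 2.03 in KO, against 2.51, 3.58 and 3.26 in wild-type. These ratios overlapped (log2 difference -0.38, exact permutation test, two-sided, p = 0.2). Over all 5 genes of the system, 3 were called higher and 2 were not called, against 23.3% higher and 21.5% lower over all genes tested.

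The 4 genes of transport, storage and receptor turnover gave 1 higher, 2 lower and 1 not called, with a median log2 difference of -0.32. Over all genes tested 23.3% were higher and 21.5% lower, so the higher share was near that of all genes. The lower count rests on 2 genes, Npc1 and Soat1. Npc1, which exports cholesterol from lysosomes, had 515, 474 and 483 normalized counts in the KO libraries, against 881, 841 and 736 in the wild-type libraries (log2 difference -0.74 ± 0.15 SE, limma adjusted p = 0.00264). Each KO library was lower than each wild-type library. Soat1, which esterifies cholesterol for storage (chr1:156424525-156474331, minus strand), had 838, 1169 and 626 in KO and 1562, 1337 and 1241 in wild-type (log2 difference -0.69 ± 0.21 SE, adjusted p = 0.0224). The KO libraries were spread more widely than the wild-type ones, and KO replicate 2 came close to the lowest wild-type library. Its call was lost without KO replicate 1 (limma adjusted p = 0.0697), KO replicate 3 (0.0943) or wild-type replicate 1 (0.0519), without both wild-type libraries 2 and 3 (0.0636), with scaling to total reads (0.105) and in the authors' deposited table (0.0718). Stard4, a soluble sterol carrier and SREBP target, had 2627, 3070.3 and 2288 in KO and 1941, 1714 and 1754 in wild-type (log2 difference 0.55 ± 0.15 SE, adjusted p = 0.0104). It lost its call without KO replicate 2 (limma adjusted p = 0.0517), without both wild-type libraries 2 and 3 (0.108) and after quantile normalization (0.0547). Mylip, a ubiquitin ligase that sends lipoprotein receptors to degradation and is a target of the sterol-sensing LXR receptors, had 145, 188 and 203 in KO and 158, 175 and 182 in wild-type. Its groups overlapped (log2 difference 0.05 ± 0.23 SE, adjusted p = 0.884), and the direction turned after upper quartile scaling (-0.089), with array weights (-0.068), without KO replicate 3 (-0.049) and without wild-type replicate 1 (-0.011).

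Levels of different genes were compared per kb of exon, using the exon length of GENCODE vM21. Hmgcs1 was the highest of the 29 in both groups, at 2279 ± 138 normalized counts per kb in KO and 1767 ± 177 in wild-type (SD, n = 3 libraries each). The order below it differed between groups. Pmvk stood at place 7 in KO, with 1029.6 ± 141 per kb, and at place 20 in wild-type, with 197 ± 31.8. Fdps was at place 3 in KO, with 1347 ± 155, and at place 6 in wild-type, with 412 ± 72.3. Lbr stood at 784 ± 22.3 per kb in KO, place 9, and at 243 ± 39.9 in wild-type, place 17. Scap moved the other way in the order, with place 20 in KO, at 433 ± 32.1, and place 8 in wild-type, at 384 ± 35.6. Insig1 had place 5 in KO, at 1221 ± 156, and place 2 in wild-type, at 1063 ± 28.6. At the foot of the order, Npc1 was lowest in KO, at 43.3 ± 1.90 per kb against 72.4 ± 6.63 in wild-type, and Tm7sf2 was lowest in wild-type, at 81.7 ± 13.3 in KO against 50.1 ± 14.6. Most neighbours in the order could not be separated: the ranges of 3 libraries did not overlap for 6 of 28 neighbouring pairs in KO and for 6 of 28 in wild-type. In KO the highest gene, Hmgcs1, lay apart from Cyp51, the next; in wild-type Hmgcs1 lay apart from Insig1, and Insig1 from Srebf2. The exon length used is the union over all annotated transcripts, so a gene with a long union, such as Lss with 10787 bases, comes out lower on this scale.

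**Figure D4:**
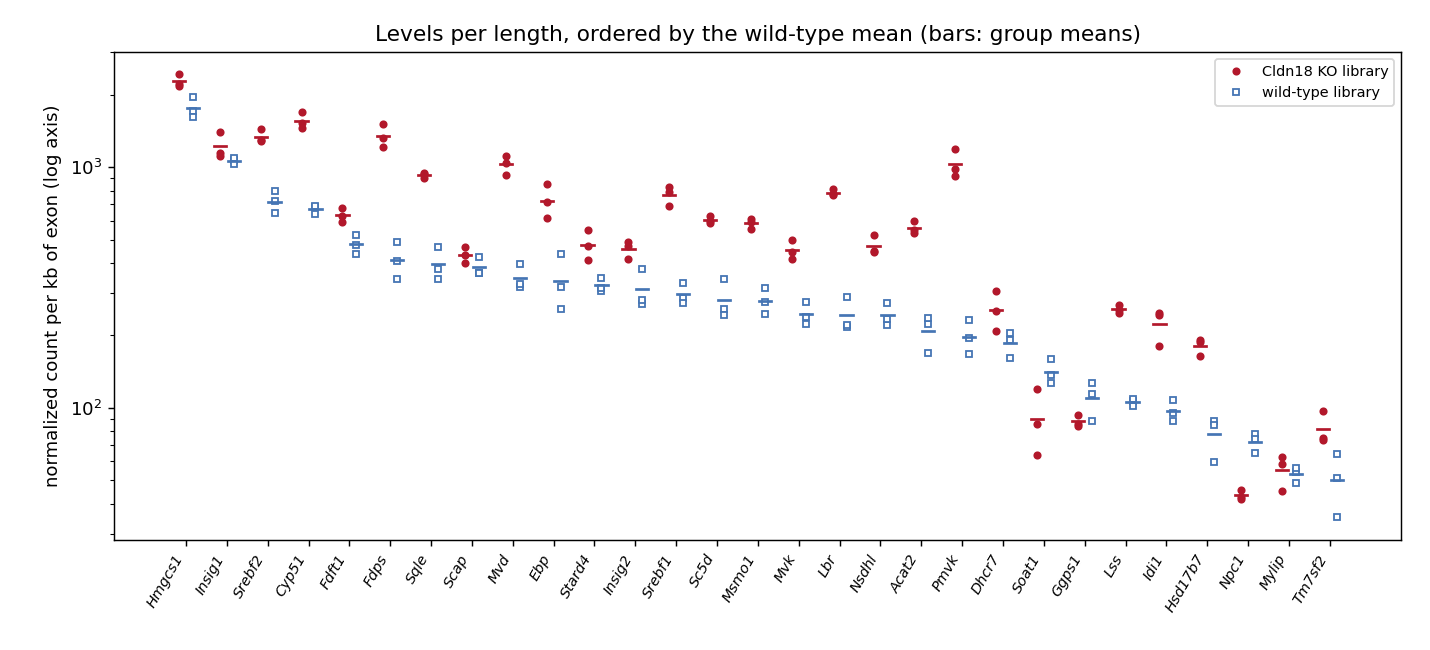
Normalized count per kb of exon (log axis) of each gene in each library, ordered by the wild-type mean. Filled circles are KO libraries, open squares wild-type libraries, and bars are group means. Hmgcs1 is the highest in both groups; Pmvk stands among the highest genes in KO and at place 20 of 29 in wild-type.

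Other genes of sterol and lipid metabolism were read from 5 further lists, whose counts stand against 23.3% higher and 21.5% lower over all genes tested. In the list of SREBP processing and sterol-sensing degradation, 1 of 9 was higher and 2 were lower. The higher share was below that of all genes and the lower share near it. Both proteases that cut SREBP in the Golgi, Mbtps1 and Mbtps2, were not called (log2 difference -0.01 ± 0.15 and 0.23 ± 0.14 SE). Erlin1, a membrane protein of the endoplasmic reticulum that restrains SREBP, was higher (log2 difference 0.44 ± 0.14 SE, limma adjusted p = 0.0294). It was not called without KO replicate 1 (0.101), KO replicate 2 (0.112) or wild-type replicate 3 (0.0990), nor without both wild-type libraries 2 and 3 (log2 difference 0.27, limma adjusted p = 0.238). Its call was also lost without a filter on low values (limma adjusted p = 0.0544), after upper quartile scaling (0.0818) or quantile normalization (0.111), with the replicate block (0.0581) and in the authors' deposited table (0.138). Rnf139, a ubiquitin ligase of the endoplasmic reticulum, had 1000.1, 978 and 1013 normalized counts in KO and 1271, 2679.7 and 1630.3 in wild-type (log2 difference -0.83 ± 0.23 SE, adjusted p = 0.0141), with wild-type replicate 2 far above the rest. It was not called without wild-type libraries 2 and 3 (log2 difference -0.35, limma adjusted p = 0.120), with scaling to total reads (0.0803) or in the authors' deposited table (0.194). Pgrmc1, a haem-binding membrane protein gene, was lower in KO (log2 difference -0.52 ± 0.14 SE; adjusted p = 0.0109), though not without KO replicate 1 (limma adjusted p = 0.0582) or in the authors' deposited table (0.0905).

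The LXR receptors respond to surplus sterol and switch on its disposal, besides the Srebf1 gene. Of 12 genes in the list of LXR, efflux and oxysterol genes, 10 were tested; 2 of these were higher, 1 lower and 7 not called, against 23.3% higher and 21.5% lower over all genes, so the higher share was near that of all genes and the lower share below it. Abca1, the classical LXR target that exports cholesterol, had 373, 451 and 577 normalized counts in KO and 422, 452 and 268 in wild-type, and the groups overlapped (limma adjusted p = 0.332). Lpcat3, a phospholipid remodelling enzyme, was higher (log2 difference 0.74 ± 0.14 SE, adjusted p = 0.00151). Ch25h, which makes an oxysterol that restrains SREBP, was also higher at a low level, with 54.8, 39.9 and 68.2 in KO and 17.1, 9.88 and 23.3 in wild-type (log2 difference 1.68 ± 0.48 SE, adjusted p = 0.0155); it lost the call without KO replicate 1 (0.0587) or KO replicate 3 (0.0733) and without both wild-type libraries 2 and 3 (0.0518). Cyp39a1, an oxysterol hydroxylase, was lower in KO (log2 difference -0.53 ± 0.19 SE; adjusted p = 0.0402). It was not called without KO replicates 1 or 3 or wild-type replicates 1 or 3 (0.0825 to 0.180), nor without both wild-type libraries 2 and 3 (0.0832). Its call was also lost by edgeR (adjusted p = 0.0597), without a filter on low values (limma adjusted p = 0.0554), with the replicate block (0.0622), with scaling to total reads (0.178) and in the authors' deposited table (0.206).

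Of 13 genes of cholesterol uptake, trafficking and esters, 4 were higher and 3 lower, shares near the 23.3% and 21.5% of all genes tested. After upper quartile scaling or quantile normalization 7 were lower. The lipoprotein receptor genes Lrp8 and Vldlr went in opposite directions. Lrp8, a receptor also known from reelin signalling in the brain, had 1100.3, 879 and 1040.0 normalized counts in the KO libraries, against 84.5, 129.7 and 151 in the wild-type libraries (log2 difference 3.07 ± 0.23 SE, limma adjusted p = 5.09e-06). Vldlr, its close relative, had 236, 396 and 308 in KO and 1443, 1164 and 1158 in wild-type (log2 difference -2.02 ± 0.20 SE, adjusted p = 3.21e-05). Scarb1, the HDL receptor gene, was higher in KO (log2 difference 0.86 ± 0.15 SE). The sterol esterifying genes also differed in direction: Soat2 had 248, 280.0 and 342 in KO and 162, 119 and 156 in wild-type (log2 difference 0.99 ± 0.23 SE, adjusted p = 0.00547), while its relative Soat1, given above, was lower. Npc2, the partner of Npc1 in lysosomal export, was lower (log2 difference -0.88 ± 0.15 SE), as was Nceh1, a neutral cholesterol ester hydrolase (-1.65 ± 0.16 SE).

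Users of the non-sterol isoprenoids and the fatty acid genes that SREBP1 is known for completed the lists. Of 12 genes of ubiquinone, dolichol and protein prenylation, 9 were higher in KO and 0 lower, with a median log2 difference of 0.52. Pdss2, a subunit of the enzyme that makes the ubiquinone tail, had 969.9, 776 and 775 normalized counts in KO and 472, 379 and 408 in wild-type, the largest difference of the list. Nus1, of dolichol synthesis, came next (log2 difference 0.91 ± 0.15 SE). The count was 5 without KO replicate 1 or without wild-type replicate 3, 3 without both wild-type libraries 2 and 3, and 3 in the authors' deposited table. Of 16 fatty acid synthesis genes, 10 were higher and 3 lower, with a median of 1.06. The stearoyl-CoA desaturase genes led: Scd2 had 29033, 38738 and 36734 normalized counts in KO and 3385, 2806 and 2453 in wild-type (log2 difference 3.60 ± 0.18 SE, limma adjusted p = 3.11e-07), and Scd1 had 3252, 4571 and 4193 in KO and 372, 405 and 419 in wild-type (log2 difference 3.31 ± 0.16 SE, adjusted p = 2.48e-07). Thrsp (-2.41 ± 0.42 SE), Gpam (-2.24 ± 0.16 SE) and Lpin1 (-1.23 ± 0.23 SE), genes of lipogenic control and glycerolipid synthesis, were lower. The call of Lpin1 was lost without both wild-type libraries 2 and 3 (limma adjusted p = 0.0537).

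**Figure D5:**
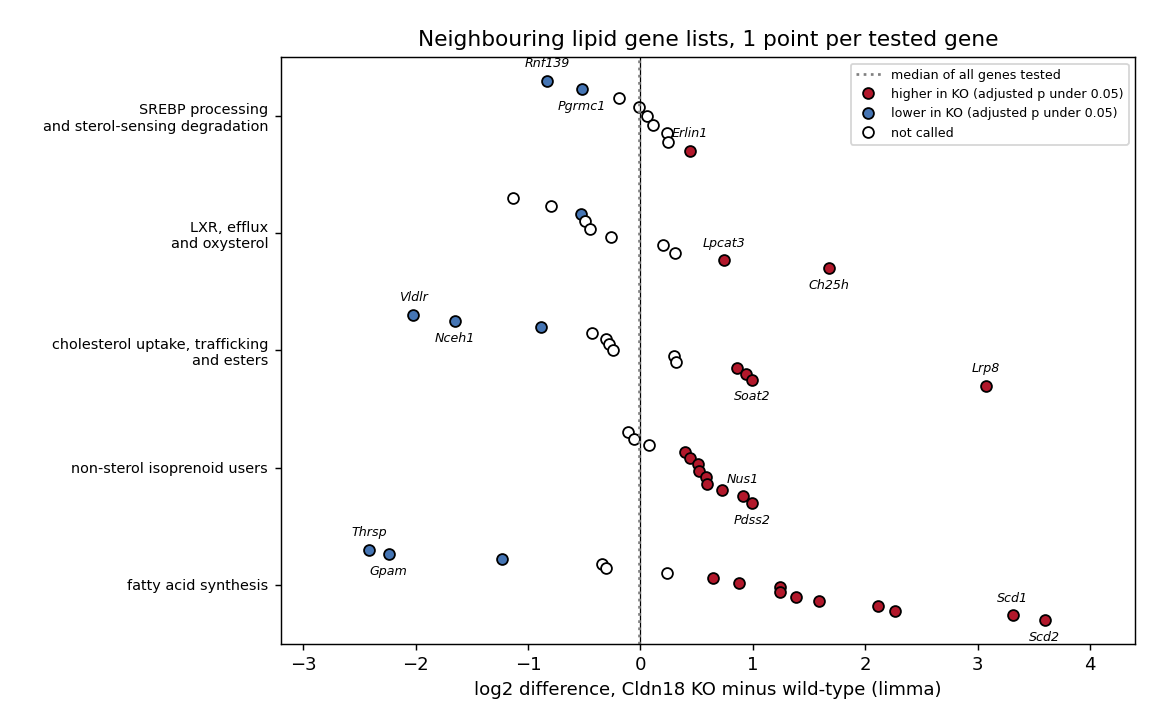
Log2 difference, KO minus wild-type, of each tested gene in 5 neighbouring lists (limma). Red points were called higher, blue points lower and open points not called. A called gene is named if it is among the 2 lowest or 2 highest tested genes of its list. Of 12 non-sterol isoprenoid users 9 were higher and 0 lower, and the uptake, trafficking and ester genes reach from -2.02 (Vldlr) to 3.07 (Lrp8).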

How the data were processed

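RNA of laser-captured corpus neck tissue was sequenced in 3 Cldn18 knockout and 3 wild-type libraries, grouped by their labels. STAR, featureCounts, DESeq and mm10 are named in the submitters' processing notes; the sources used here do not give their roles or versions, the annotation or the strandedness. The values deposited by the authors are normalized counts (unit: signal). All values (100%) were whole reads over a library's size factor, within 0.05 reads, and the recovered reads were used only for alternatives. A deposited table of the authors' own comparison, which lists means, a ratio (fold change) and p-values of 23084 genes, served only as an alternative. A total of 27 rows held a date for a symbol.

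The test was limma 3.58.1 (trend, R 4.3.3), two-sided and without covariates, run on log2 of the normalized count plus 1. Its p-values were adjusted by Benjamini and Hochberg's method over the 17432 genes that reached 10 in 3 or more libraries. Differences are on that scale, on which those of low genes come out too small. The code was tested on simulated data. Alternatives changed the pseudocount, filter, scaling, test (edgeR 4.0.16, DESeq2 1.42.0), threshold and libraries. Coordinates and exon lengths (mm10) came from GENCODE vM21. Similar transcripts were found with blastn 2.17.0 (identity of at least 85% over at least 400 bases). Promoters came from RefSeq (GRCm38.p6); 5 genes had no entry, and motifs were searched as spelled on both strands. All of the 29 genes are named; of other lists, the called genes with the largest differences in each direction and those behind small counts, except 1 gene that is not reported here. Mbtps1, Mbtps2 and Abca1 were named after their values were seen. The genes and lists were chosen with earlier results of these data known.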

Additional observations from a re-analysis of the deposited data

How the results depend on the processing

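Of the 23 called genes among the 29, 18 were called in each of the 21 alternatives but the size threshold; Fdft1, Tm7sf2, Insig2, Stard4 and Soat1 were not. The number called higher was 21, and 18 to 23 with 1 library left out; the number called lower was 2, and 1 to 2. With scaling to total reads 24 were higher and 1 lower. The authors' deposited comparison had 18 higher and 1 lower. Without wild-type libraries 2 and 3, with the remaining 1 assumed to vary like the KO libraries, 17 were higher and 1 lower, and with a log2 difference of at least 1, 14 and 0. Over all genes, 4053 were higher and 3743 lower. Scaling to total reads gave 4861 and 2954, and upper quartile scaling 3456 and 4504. The authors' table gave 2918 and 2024, the fit without wild-type libraries 2 and 3 gave 2998 and 2488, and the size threshold left 1957 higher. Left-out libraries gave 3138 to 4379 higher and 2969 to 3899 lower. The ratio differences with 1 library left out ran from -0.56 to -0.27 for Insig1 to Insig2, from -0.53 to -0.44 for Srebf2 to Srebf1 and from -1.13 to -0.88 for Tm7sf2 to Lbr. The median of all genes, -0.02, became 0.13 with scaling to total reads, 0.10 with quantile normalization and -0.15 with upper quartile scaling. The only reversals among the 29 were those of Mylip, which was not called in any alternative: -0.089 with upper quartile scaling, -0.068 with array weights, and -0.049 to 0.19 with 1 library left out. Apart from the size threshold and the fits with fewer libraries, the cause of these shifts was not tested. The deviations of KO and wild-type libraries of the same number correlated at -0.00366, 0.0214 and -0.173. Each KO library was closest to a wild-type library of another number. With 3 libraries a group such values cannot show whether the libraries were paired. The numbers were not taken as a pairing. With the replicate block 20 of the 29 were higher and 2 lower (Fdft1 lost its call, limma adjusted p = 0.0786), and over all genes 3726 and 3626. Counts per gene rest on these depths, and p-values on 3 libraries a group.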
